A study of Mus musculus with 9 samples.

Results

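The 9 genes described here encode S100 calcium-binding proteins: S100a1, S100a4, S100a6, S100a8, S100a9, S100a10, S100a11, S100a13 and S100a16. They are 9 of the 30128 genes in the deposited expression table and were chosen by symbol, with their values over all 9 libraries known. Their levels and differences are therefore given as a description, with no p-value. How many of them passed the threshold is counted once, beside the share of all genes. The study sequenced polyadenylated RNA of mouse left ventricle, the main pumping chamber, in 3 groups of 3 libraries. The control group is labelled wild type, and its labels name no virus. Both other groups are db/db, the leptin receptor mutant used as a model of obesity and type 2 diabetes, and both received adeno-associated virus serotype 9: AAV9_null in the null virus group and AAV9_USP28 in the USP28 virus group. Per the series' design text, USP28 (a deubiquitinase, an enzyme that removes ubiquitin from proteins) was expressed from the cTnT promoter, which is active in cardiomyocytes. The control and null virus groups thus differ in genotype and in virus, whose parts cannot be told apart. The labels give no age, sex or strain background and do not state whether each library is its own animal. The p-values below therefore measure only the spread between these samples, which may be technical.

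S100 proteins are small proteins with a pair of EF-hand loops that mostly act as dimers. Most of them, though not all, bind calcium through these loops and change shape on binding so that they can dock onto partner proteins. In the heart, S100A1 is the form of the cardiomyocyte, where it acts on the ryanodine receptor, the SERCA2a calcium pump and titin and supports contraction. S100A8 and S100A9 form calprotectin, which is stored in large amounts in the cytosol of neutrophils, is also made by monocytes, and signals through TLR4 and RAGE when released. The other members occur in many cell types: S100A4 and S100A6 in fibroblasts and other motile cells, S100A10 and S100A11 as partners of annexins at membranes, S100A13 in the release of FGF1 and S100A16 more broadly.

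Levels are in scaled RPKM, reads relative to gene length and library depth after scaling between libraries, so levels of different genes can be set side by side. Log2 differences are on the scale log2(scaled RPKM + 0.1) with their standard error (SE), which understates the difference of low genes. Library depth ran from 35970332 to 56497662 reads, and a gene was tested where 3 or more libraries had RPKM of 0.5 or higher, which 14104 genes met. Of the 9 members 8 passed this filter, and S100a8 did not. The library null virus 1 was the shallowest and stood farthest from its group, with a mean absolute deviation of 0.334 (log2) where the remaining libraries had 0.145 to 0.214, and differences that move by over 1.5 times without it are given both ways. The cardiomyocyte genes Myh6 and Tnnt2 were at 12047 or more and 5284 or more scaled RPKM in every library. Usp28 itself fell between control (13.2 ± 0.602, SD, n = 3) and null virus (8.48 ± 1.35) by 0.65 on the log2 scale (limma adjusted p = 0.00837), and its 0.35 difference between USP28 virus (10.7 ± 0.897) and null virus had limma adjusted p = 0.215.

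The family was dominated by S100a1. Summed over the 9 members, the level in scaled RPKM was 762 ± 36.8 for control, 1016 ± 271 for null virus and 783 ± 60.4 for USP28 virus (SD, n = 3), and S100a1 alone made up 90.3%, 89.5% and 90.8% of these sums. S100a13 was second in every group. In control S100a9, S100a11, S100a10 and S100a16 followed, and each of these overlapped the next in that order. S100a4, S100a6 and S100a8 came last, separated from each other. In both db/db groups S100a10, S100a11 and S100a16 held the places after S100a13, again with overlapping values, and S100a9 had moved to the place before last, below S100a6. With null virus S100a6 and S100a9 overlapped, and with USP28 virus they did not.

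**Figure D1:**
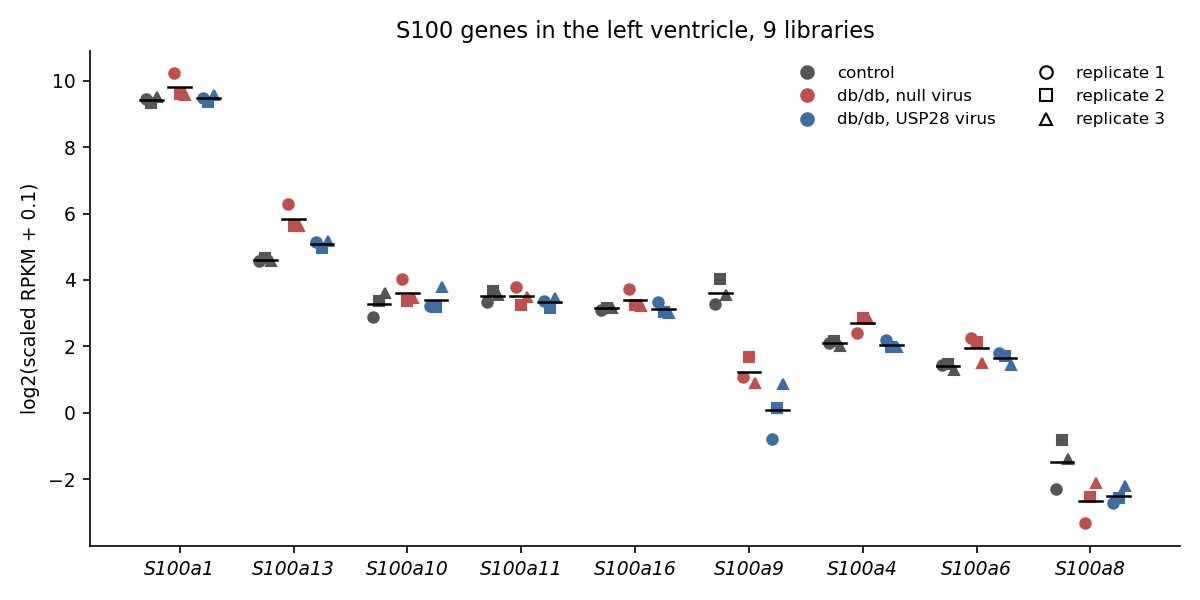
Level of the 9 S100 genes in each library, as log2(scaled RPKM + 0.1) on the vertical axis, coloured by group, with the symbol showing the replicate and the bar the group mean. S100a1 sits far above the rest in all 9 libraries, and S100a9 drops from 12.4 scaled RPKM in control to 2.29 in null virus and 1.07 in USP28 virus.

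Of the calprotectin subunits, S100a9 showed the widest differences of the tested members, and S100a8 was too low to be tested. Both genes lie on chromosome 3 of GRCm38, S100a8 (ENSMUSG00000056054.9) at chr3:90668978-90670035 on the plus strand and S100a9 (ENSMUSG00000056071.12) at chr3:90692632-90695721 on the minus strand, with 22596 bases between them. Both are known targets of C/EBP factors and PU.1, the transcription factors of the myeloid lineage. Their upstream sequences, from RefSeq's GRCm38.p6, are shown because they are the windows of these genes in which the core letters of those factors were searched, namely TTNNGNAA for C/EBP and GAGGAA for PU.1, on both strands. Capitals mark matches on either strand, and no match overlapped another. The S100a8 stretch is chr3:90668821-90668977 (plus strand) and the S100a9 stretch is chr3:90695722-90695971 (minus strand), each ending at the base before the gene span of the table.
S100a8 upstream: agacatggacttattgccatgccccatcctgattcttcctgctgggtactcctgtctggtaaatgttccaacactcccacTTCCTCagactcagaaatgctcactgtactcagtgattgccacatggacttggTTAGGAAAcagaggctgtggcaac
S100a9 upstream: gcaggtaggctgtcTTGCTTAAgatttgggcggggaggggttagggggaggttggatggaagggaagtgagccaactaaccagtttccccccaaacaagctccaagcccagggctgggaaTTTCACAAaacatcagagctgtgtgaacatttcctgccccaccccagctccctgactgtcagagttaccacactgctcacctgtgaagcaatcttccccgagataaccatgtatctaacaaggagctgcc

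In windows from 250 bases before to 50 after the RefSeq start site, the C/EBP letters occurred once in S100a8 and in 2 places in S100a9, and not in the windows of S100a1, S100a4, S100a6, S100a11, S100a13 or S100a16. The PU.1 letters occurred in 2 places in S100a8, one of which lies inside the gene span and is not in the stretch above, and in 1 place each in S100a4, S100a11 and 1 of the 2 windows of S100a16. Of all 32851 RefSeq windows of 300 bases, 40.7% hold the C/EBP letters and 28.3% the PU.1 letters, so such matches are common. A match describes these letters and is not evidence of binding.

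S100a9 was highest in control and lowest with USP28 virus. Its level was 9.59, 16.2 and 11.6 scaled RPKM in control libraries 1 to 3, then 2.03, 3.08 and 1.77 with null virus, and 0.480, 1.01 and 1.72 with USP28 virus. No control library overlapped either db/db group, and the db/db groups came close, at 1.77 in the lowest null virus library and 1.72 in the highest USP28 virus library. The means were 12.4 ± 3.37, 2.29 ± 0.691 and 1.07 ± 0.624 (SD, n = 3), so null virus was 5.42-fold and USP28 virus 11.6-fold below control. The log2 differences were -2.39 ± 0.39 (SE) for null virus against control, -3.54 ± 0.39 for USP28 virus against control and -1.14 ± 0.39 for USP28 virus against null virus. With a pseudocount of 1 the last 2 were -2.71 and -0.69, and without USP28 virus 1 the last was -0.70. These levels rest on 277 to 360 reads per control library, 32 to 64 with null virus and 14 to 44 with USP28 virus. Relative to depth, the summed reads gave a ratio of 0.188 (95% exact interval 0.156 to 0.226) for null virus to control and 0.484 (0.363 to 0.643) for USP28 virus to null virus, where the interval covers counting error only. In bulk tissue, fewer cells of a type and less RNA per cell cannot be told apart.

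S100a8 was near the limit of detection in every library. It was at 0.104, 0.473 and 0.285 scaled RPKM in control, 0, 0.0723 and 0.130 with null virus, and 0.0516, 0.0691 and 0.118 with USP28 virus. The reads behind these values were 28 in the 3 control libraries together, 6 with null virus and 8 with USP28 virus. Control 2 and control 3 lay above all 6 db/db libraries and control 1 did not, so the groups overlapped. By reads relative to depth, the ratio was 0.278 (0.0940 to 0.684) for null virus to control and 0.307 (0.121 to 0.692) for USP28 virus to control. Between the db/db groups it was 1.11 (0.337 to 3.87), which is too wide to show a difference of the size seen in S100a9. The subunits were far from equal in RNA: S100a8 gave 2.89% of the reads of the pair in control (exact binomial interval 1.93% to 4.15%), 4.20% (1.56% to 8.91%) with null virus and 9.09% (4.01% to 17.1%) with USP28 virus. The intervals of the ratios and of these shares pool the reads of each group. They cover counting error only, not the spread between libraries.

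The neutrophil label of this pair was checked against 17 neutrophil markers, of which 15 were in the table and 2, Hdc and Lcn2, passed the filter. Ly6g, which marks mouse neutrophils, was listed at 0 in 8 of 9 libraries, with 2 reads in control 2. The granule gene Camp was likewise at 0 in 8 libraries, with 5 reads in control 2, and Ngp did not exceed 8 reads. The summed marker level was 1.41 to 2.64 scaled RPKM in control, 1.56 to 2.23 with null virus and 1.19 to 1.39 with USP28 virus, so the null virus range lay inside that of control and USP28 virus just below it. Hdc and Lcn2 made up a large part of these sums. Without both, a step chosen after the values were seen, the other 13 markers summed to 0.924, 1.95 and 1.01 in control, 0.595, 0.773 and 0.892 with null virus, and 0.268, 0.278 and 0.420 with USP28 virus. These sums did not overlap between the groups, whose order was that of S100a9. Both genes left out had higher means with null virus than in control, and the other 13 lay below the filter. Nothing is therefore read from this separation, which the full list does not show. Hdc, the histidine decarboxylase that basophils and mast cells also make, met the filter only through db/db libraries, where it was high. It was at 0.0906, 0.279 and 0.161 scaled RPKM in control, 0.431, 0.656 and 0.650 with null virus, and 0.510, 0.488 and 0.592 with USP28 virus. Its calls therefore give no support. It rose by 1.33 with null virus (limma adjusted p = 0.0172) and by 1.24 with USP28 virus (limma adjusted p = 0.0336) against control. With a pseudocount of 1 these differences were 0.42 and 0.38. The first call was lost without control 3 or null virus 2 (limma adjusted p = 0.0533 and 0.0523), and the second without control 1, control 3 or any 1 USP28 virus library. Lcn2 differed by 0.61 with null virus (limma adjusted p = 0.114) and did not pass.

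Of these markers, a pair of receptor genes with lower means in both db/db groups is shown by library. Hdc and Lcn2, whose means were higher with null virus than in control, are not in the figure. Csf3r, the receptor for G-CSF, was at 0.150, 0.734 and 0.477 scaled RPKM in control, 0.165, 0.209 and 0.181 with null virus and 0.0794, 0.199 and 0.227 with USP28 virus. Cxcr2, the receptor for neutrophil chemokines, was at 0.0475, 0.323 and 0.169 in control, 0, 0.0659 and 0.0888 with null virus, and 0.0118, 0.0157 and 0.0671 with USP28 virus. Within control, S100a8, S100a9, Csf3r and Cxcr2 shared 1 order, with control 2 highest and control 1 lowest. Hdc had this order too. Lcn2, at 0.524, 0.402 and 0.241 in control libraries 1 to 3, and Ngp, at 0.118, 0.115 and 0, did not. In both of these control 1 was highest and control 3 lowest, so the marker list does not share 1 order. Both receptors lay below the filter and were not tested.

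**Figure D2:**
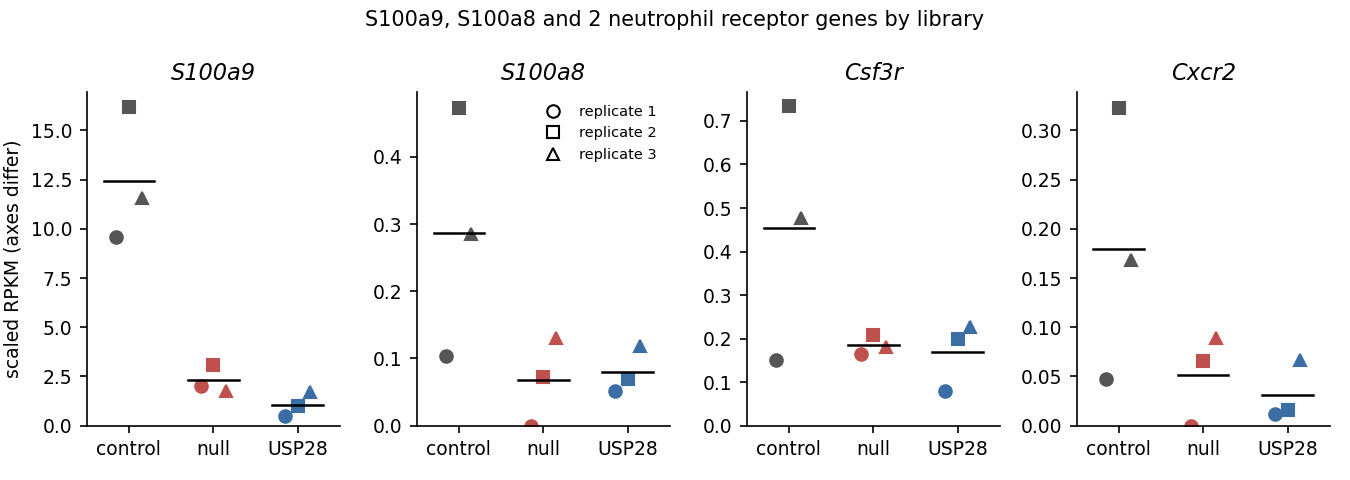
Scaled RPKM of S100a9, S100a8, Csf3r and Cxcr2 in each library by group, each panel with its own linear axis from 0, with the symbol showing the replicate and the bar the group mean. Control 2 is highest in all 4 panels, and S100a9 is the one gene of the 4 whose control libraries all lie above the db/db libraries.

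Other blood genes also varied between libraries. The summed level of 6 red blood cell genes was 140, 524 and 269 scaled RPKM in control libraries 1 to 3, 133, 197 and 129 with null virus, and 108, 107 and 224 with USP28 virus. Its control order was that of S100a9, with control 2 highest and control 1 lowest, and USP28 virus 3 was the highest of its group in both. Of the 5 red blood cell genes tested, 0 passed in any comparison by limma or limma voom (at an unadjusted p under 0.05, 1 in null virus against control and 2 in USP28 virus against control). The summed level of 7 monocyte genes was 10.4 to 13.7 in control, 6.39 to 9.68 with null virus and 8.57 to 9.56 with USP28 virus. Vcan, a versican gene expressed in classical monocytes, fell by 0.99 with null virus (limma adjusted p = 0.0256, or 0.0568 without null virus 2), or by 0.35 with a pseudocount of 1. It met the filter only through the 3 control libraries, where it was high, at 0.549 to 0.629 scaled RPKM. Without any 1 of them it was not tested, so its call gives no support. The part of these blood genes in the S100a9 difference was not tested.

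S100a1 stayed high in all 3 groups. The gene (ENSMUSG00000044080.9) lies at chr3:90511034-90514392 on the minus strand. It was at 699, 643 and 723 scaled RPKM in control, 1195, 779 and 755 with null virus, and 719, 654 and 762 with USP28 virus, on 18928 to 27867 reads per library. All null virus libraries lay above all control libraries, with null virus 1 far above the rest, and USP28 virus overlapped both other groups. The means were 688 ± 41.2, 910 ± 247 and 712 ± 54.4 (SD, n = 3). The log2 difference of null virus against control was 0.37 ± 0.18 (SE), or 0.16 without null virus 1. Against null virus, USP28 virus differed by -0.32 ± 0.18, or -0.11 without that library, and against control by 0.05 ± 0.18.

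Set against S100a1, the calprotectin pair was a small part of the S100 RNA of the ventricle and a changing one. The sum of S100a8 and S100a9 was 1.87% ± 0.634 of the S100a1 level in control (range 1.39% to 2.59%), 0.275% ± 0.119 with null virus (0.170% to 0.404%) and 0.160% ± 0.0840 with USP28 virus (0.0740% to 0.242%; SD, n = 3). Control did not overlap either db/db group, and the db/db groups overlapped each other.

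S100a13, the gene next to S100a1, differed more than S100a1 did. S100a13 (ENSMUSG00000042312.9) lies at chr3:90514435-90524581 on the plus strand and runs away from S100a1, with 42 bases between their annotated spans. This gap, chr3:90514393-90514434 of GRCm38.p6 on the plus strand, is shown because both genes start from it, in opposite directions. It holds neither the C/EBP nor the PU.1 letters, so it has no capitals.
between S100a1 and S100a13: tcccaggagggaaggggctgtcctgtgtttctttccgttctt

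S100a13 was at 23.4, 25.4 and 23.5 scaled RPKM in control, 78.3, 48.9 and 49.0 with null virus, and 35.1, 31.1 and 36.2 with USP28 virus. The 3 groups did not overlap: null virus was highest, USP28 virus in between and control lowest. The means were 24.1 ± 1.14, 58.7 ± 16.9 and 34.1 ± 2.66 (SD, n = 3), 2.43-fold higher with null virus than in control. The log2 differences were 1.24 ± 0.18 (SE) for null virus against control, 0.50 ± 0.18 for USP28 virus against control and -0.75 ± 0.18 for USP28 virus against null virus. Without null virus 1 the first was 1.02 and the last -0.52. As a share of its neighbour, S100a13 was 3.52% ± 0.384 of the S100a1 level in control (range 3.25% to 3.96%), 6.44% ± 0.144 with null virus (6.27% to 6.55%) and 4.80% ± 0.0701 with USP28 virus (4.75% to 4.88%). Null virus 1 was the highest library of both genes, while its share, 6.55%, was close to the 6.27% and 6.48% of null virus 2 and 3.

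**Figure D3:**
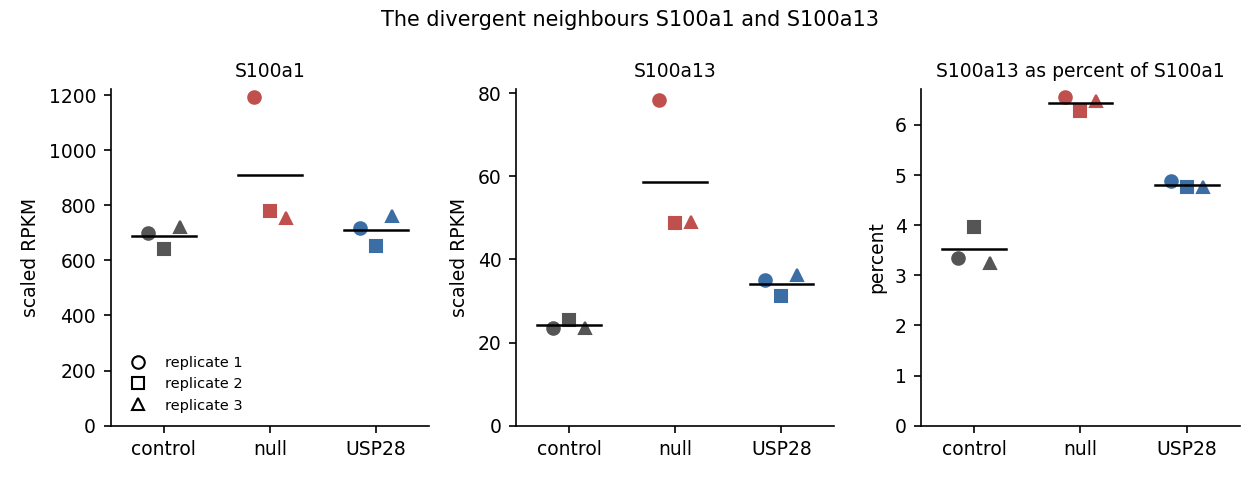
Scaled RPKM of S100a1 and of its neighbour S100a13 and, at right, S100a13 as a percentage of S100a1, in each library by group, on linear axes from 0, with the symbol showing the replicate and the bar the group mean. In the ratio the 3 groups are separate, at 3.25% to 3.96% in control, 6.27% to 6.55% with null virus and 4.75% to 4.88% with USP28 virus.

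Fabp4, a fatty acid carrier of endothelial cells and adipocytes, followed the same order of groups as S100a13. It rose by 1.45 with null virus (limma adjusted p = 0.00337) and by 0.93 with USP28 virus (limma adjusted p = 0.0282) against control, and the USP28 virus call was lost without control 2, control 3 or any 1 USP28 virus library. The summed level of 11 endothelial genes, Fabp4 among them, was 173 to 198 scaled RPKM in control, 332 to 421 with null virus and 276 to 306 with USP28 virus. Without Fabp4, a step chosen after the values were seen, the sums were 95.3, 105 and 109 in control, 118, 150 and 147 with null virus, and 143, 133 and 129 with USP28 virus. The remaining endothelial genes thus lay above control in both db/db groups, which overlapped each other, and null virus 1 was the lowest of its group. Of the 11 endothelial genes, 5 were higher with null virus and 4 with USP28 virus than in control, and 0 were lower. Among all tested genes 10.2% and 5.29% were higher, and 12% and 6.58% lower. The 6 adipocyte genes summed to 67.9 to 103 in control, 185 to 303 with null virus and 147 to 163 with USP28 virus, and the 5 other than Fabp4 to at most 0.332 in any library. The marker lists were chosen with earlier results of these data known, so nothing is read from the endothelial count. The part of endothelial cells in the S100a13 difference was not tested.

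S100a4, also called fibroblast-specific protein though many leukocytes make it, was highest with null virus. The gene (ENSMUSG00000001020.8, chr3:90603771-90606045, plus strand) was at 4.18, 4.41 and 3.90 scaled RPKM in control, 5.23, 7.14 and 7.03 with null virus, and 4.48, 3.82 and 3.82 with USP28 virus. All null virus libraries lay above all libraries of the other groups, which overlapped each other. The log2 differences were 0.61 ± 0.14 (SE) for null virus against control, -0.66 ± 0.14 for USP28 virus against null virus and -0.05 ± 0.14 for USP28 virus against control. S100a4 shares 302 of its exon bases (51.7%) with the predicted gene Gm42674, and 7 of 9 libraries give both genes the same number of reads. Most or all of these reads were thus counted under both names, and the counts do not show from which of these genes they came. The difference of Gm42674, also 0.61 for null virus against control, is therefore not a 2nd result, and like that of S100a4 it is given with no p-value. Unlike S100a4, collagen genes of fibroblasts were lower with null virus: 6 of 10 fibroblast markers fell and 1, Gsn, rose, and Col1a1 fell by 0.82 (limma adjusted p = 0.0144, or 0.0602 without control 2). Among all tested genes 12% fell and 10.2% rose.

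S100a6, or calcyclin, had the lowest level of the members outside the calprotectin pair in control. The gene (chr3:90612882-90624181) was at 2.63, 2.66 and 2.36 scaled RPKM in control, 4.71, 4.28 and 2.72 with null virus, and 3.39, 3.16 and 2.60 with USP28 virus. Null virus lay above control by a small margin in null virus 3, and USP28 virus overlapped both. The log2 differences were 0.56 ± 0.20 (SE) for null virus against control, -0.32 ± 0.20 for USP28 virus against null virus and 0.24 ± 0.20 for USP28 virus against control. The second was -0.16 without null virus 1, -0.54 without null virus 3 and -0.21 without USP28 virus 3.

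The remaining members differed by less. S100a10 (chr3:93555080-93564643), which joins annexin A2 in a complex that binds plasminogen, was at 9.88 ± 2.40, 12.4 ± 3.26 and 10.7 ± 2.68 scaled RPKM in control, null virus and USP28 virus (SD, n = 3), and all 3 groups overlapped. S100a11 (chr3:93520488-93526287), a partner of annexin A1, was at 11.4 ± 1.33, 11.4 ± 2.23 and 9.98 ± 1.06, and the groups overlapped too. S100a16 (chr3:90537254-90543151) was at 8.74 ± 0.243, 10.6 ± 2.26 and 8.73 ± 1.17. Its null virus libraries, at 13.2, 9.35 and 9.27, lay above the control libraries, at 8.46, 8.88 and 8.89, and overlapped those of USP28 virus. In each of these genes null virus 1 was the highest of its group. The log2 differences of these 3 members lay between -0.27 and 0.32 in all comparisons, with SE of 0.15 to 0.25. Without null virus 1 the differences of null virus against control were 0.11 for S100a10, -0.15 for S100a11 and 0.09 for S100a16, and those of USP28 virus against null virus were -0.002 for S100a10, -0.03 for S100a11 and -0.10 for S100a16. For S100a10 the difference of null virus against control was also 0.12 without control 1 and 0.48 without control 3.

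The tested members were also counted together, beside all tested genes. With null virus against control, 5 of 8 lay above without overlap, 1 (S100a9) lay below and 2 overlapped. Of all 14104 tested genes 41.4% did not overlap, 19.7% above and 21.6% below. The median log2 difference was 0.35 over the members and 0.01 over all tested genes. Without null virus 1 the differences of S100a1, S100a10 and S100a16 were 0.16, 0.11 and 0.09, while that of S100a4 was 0.75. The member medians thus depend on that library and were not recomputed without it. Past an adjusted p of 0.05 were 2 higher members (S100a13 and S100a4) and 1 lower member (S100a9), where 22.2% of all genes passed, 10.2% higher and 12% lower. Since the choice of members used these values, nothing is read from these counts. For USP28 virus against null virus, 0 members passed by limma or limma voom and 3 had an unadjusted p under 0.05. Of all genes 0.425% passed in that comparison, 0.269% as higher and 0.156% as lower. In it 3 members (S100a4, S100a9 and S100a13) lay below without overlap and 0 above, beside 12.3% and 10.9% of all genes (23.2% in all), with a median of -0.32 against -0.01. For USP28 virus against control, 1 member (S100a9) was lower and 0 higher, where 6.58% and 5.29% of all genes passed (11.9% in all). There 1 member lay above without overlap and 1 below, beside 21.2% and 24.3% (45.5% in all), and the median was 0.02 against -0.01. The 3 comparisons share groups and are not independent.

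**Figure D4:**
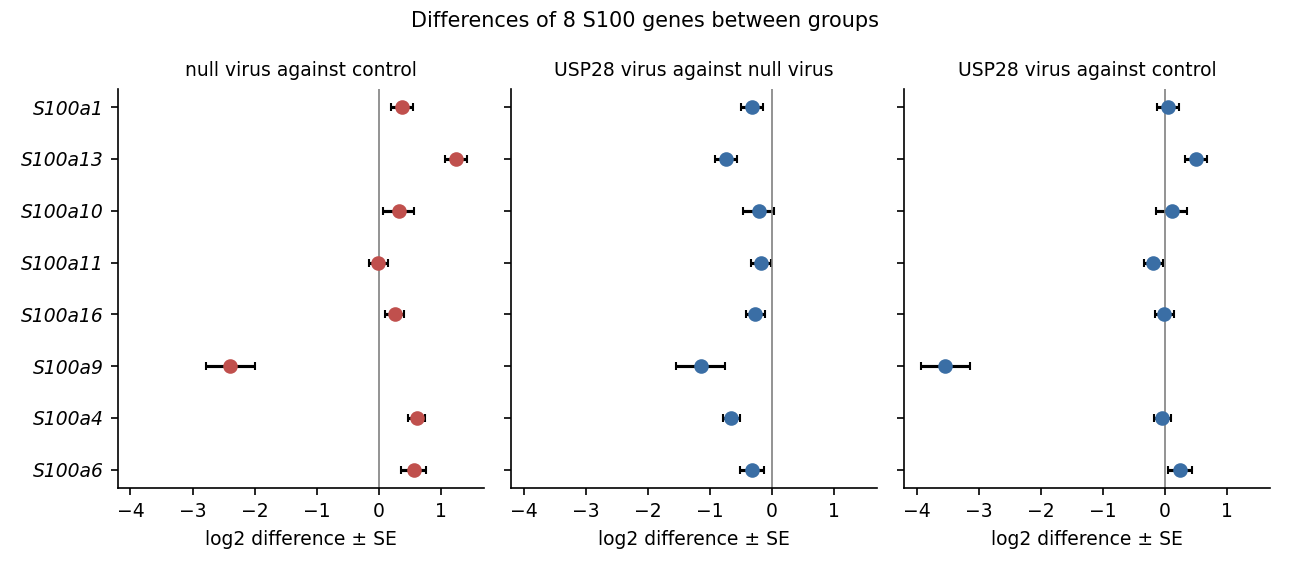
Log2 difference (point) and its SE (bar) of the 8 S100 genes that passed the filter in the 3 comparisons, on the log2(scaled RPKM + 0.1) scale, with the vertical line at 0. S100a9 lies below 0 in all 3 panels, and S100a13 lies at 1.24 for null virus and 0.50 for USP28 virus against control.

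The receptors through which released S100 proteins signal did not pass in any comparison. The list holds 9 genes, 7 of them tested: Tlr4 with its partners Ly96, Cd14 and Myd88, the immunoglobulin family receptors Bsg and Nptn, and Mcam. Tlr4, the receptor of S100A8 and S100A9, differed by -0.07 ± 0.21 (SE) with null virus and by -0.13 ± 0.21 with USP28 virus against control. Of the 7, 0 passed in each comparison by limma and by limma voom, and at an unadjusted p under 0.05 there was 1 in null virus against control, 1 in USP28 virus against null virus and 0 in USP28 virus against control. Without null virus 1, 1 receptor passed as lower in null virus against control.

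Known regulators of S100a8 and S100a9 were partly higher in the groups in which S100a9 was lower. Of 17 listed, 9 were tested, and 3 rose with null virus: Cebpd by 1.28 (limma adjusted p = 0.000951), Cebpb by 1.02 (0.00581) and Klf6 by 0.76 (0.00376). Nr3c1, the glucocorticoid receptor, fell by 0.39 (limma adjusted p = 0.0337), a call lost without control 2 (0.105) or control 3 (0.115), null virus 2 or USP28 virus 3. Cebpd was at 1.44, 1.42 and 1.97 scaled RPKM in control, 3.98, 4.06 and 4.02 with null virus, and 2.84, 2.85 and 2.72 with USP28 virus, so its 3 groups did not overlap. Against control, USP28 virus had the same 3 genes higher (Cebpd 0.78, limma adjusted p = 0.00925; Cebpb 0.87, 0.0182; Klf6 1.10, 0.00280) and 0 lower, of which Cebpb was lost without any 1 control library, USP28 virus 1 or USP28 virus 3 (limma adjusted p up to 0.0608). Spi1, which encodes PU.1, differed by -0.27 with null virus (limma adjusted p = 0.309) and by -0.30 with USP28 virus (limma adjusted p = 0.329). Many cell types of the heart express the C/EBP genes, and bulk values do not show in which they differed. Beside these counts, 10.2% of all tested genes rose and 12% fell with null virus. With USP28 virus 5.29% rose and 6.58% fell.

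Genes by which neutrophils enter tissue were tested for 8 of 16. Itgam, the CD11b integrin chain of neutrophils and monocytes, fell by 0.99 with null virus (limma adjusted p = 0.00804) and by 0.96 with USP28 virus (limma adjusted p = 0.0159). It was at 2.25, 2.38 and 2.40 scaled RPKM in control, 0.791, 1.37 and 1.33 with null virus, and 1.19, 1.10 and 1.18 with USP28 virus, without overlap between control and db/db. With a pseudocount of 1 these differences were -0.64 and -0.63. Its partner chain Itgb2 fell by 0.73 with null virus (limma adjusted p = 0.0239; -0.46 with a pseudocount of 1), and Pecam1, an endothelial adhesion molecule, rose by 0.47 (limma adjusted p = 0.0456). The Itgb2 call was lost without control 2 (limma adjusted p = 0.0786) or control 3 (0.0552). Macrophages share both integrin chains, and of 11 tested macrophage markers 3 fell with null virus, among them Cd68 by 0.74 (limma adjusted p = 0.0225, or 0.0686 without control 2 and 0.0554 without null virus 2), and 1 rose. With USP28 virus 1 fell and 1 rose. Among all tested genes 12% fell and 10.2% rose with null virus, and 6.58% fell and 5.29% rose with USP28 virus. The Itgam call with USP28 virus was lost without control 2, control 3 or any USP28 virus library, with limma adjusted p of 0.0531 to 0.0669, and the Pecam1 call without any 1 library other than null virus 1.

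A list of 15 genes held S100A1 partners and other genes of calcium cycling, the sarcomere, mitochondria and protein folding. Not every listed gene, such as Casq2, is taken here to encode a protein that binds S100A1. Of the 15, 9 were lower with null virus and 6 with USP28 virus than in control. Among all tested genes 12% and 6.58% were lower, and 10.2% and 5.29% higher. The chaperones Stip1, Fkbp4 and Hsp90aa1 made up 3 of the genes in each count. Des rose with null virus by 0.61 (limma adjusted p = 0.0222). The median log2 difference of the list with null virus was -0.76, against 0.01 over all genes. The list was chosen with earlier results of these data known, so nothing is read from its counts or median. Casq2, the calcium buffer of the sarcoplasmic reticulum, was at 216, 216 and 223 scaled RPKM in control, 116, 117 and 122 with null virus and 113, 121 and 125 with USP28 virus. It fell by 0.88 with null virus (limma adjusted p = 0.000951) and by 0.87 with USP28 virus, and its groups did not overlap between control and db/db. Atp2a2, the SERCA2a pump that S100A1 binds, fell by 1.29 (limma adjusted p = 0.0264) and the sodium-calcium exchanger Slc8a1 by 1.53 (limma adjusted p = 0.0301). Titin, Ttn, fell by 0.76 (limma adjusted p = 0.0213). Without null virus 1 the Atp2a2 and Slc8a1 differences were -0.84 and -0.98. The Atp2a2, Slc8a1 and Ttn calls were each lost without any 1 control library, with limma adjusted p of 0.0540 to 0.0882, and that of Des without control 2 or control 3. Ryr2, the ryanodine receptor, differed by -1.07 (limma adjusted p = 0.0583) and Pln, phospholamban, by -0.13 (limma adjusted p = 0.506), and neither passed.

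Chaperone genes of the same list were also lower. Stip1, the HSP70-HSP90 organizing protein, fell by 1.18 with null virus (limma adjusted p = 0.000878), Fkbp4 fell by 0.9996 (0.00181) and Hsp90aa1 fell by 1.28 (0.00776). With USP28 virus against control, 6 of 15 fell and 0 rose: Stip1 by 1.14, Casq2 by 0.87, Fkbp4 by 0.85, Capza2 by 0.47, Hsp90aa1 by 0.94 and Atp2a2 by 1.23, with a list median of -0.64. The calls of Stip1, Casq2 and Fkbp4 held without any 1 library in both comparisons with control. Between the db/db groups 0 of 15 passed by limma or limma voom, with 1 at an unadjusted p under 0.05. The count of 9 became 5 without control 1, 4 without control 2 and 4 without control 3. The count of 6 became 3 without any 1 control or USP28 virus library and 12 without null virus 1. Cardiomyocyte markers, 4 of which (Ryr2, Atp2a2, Ttn and Pln) are also in this list, gave 4 lower and 0 higher of 14 with null virus, and 3 lower with USP28 virus. Among all tested genes 12% and 6.58% were lower. The summed level of the cardiomyocyte markers overlapped between groups, at 40733 to 45538 scaled RPKM in control, 35070 to 51591 with null virus and 36531 to 41803 with USP28 virus.

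**Figure D5:**
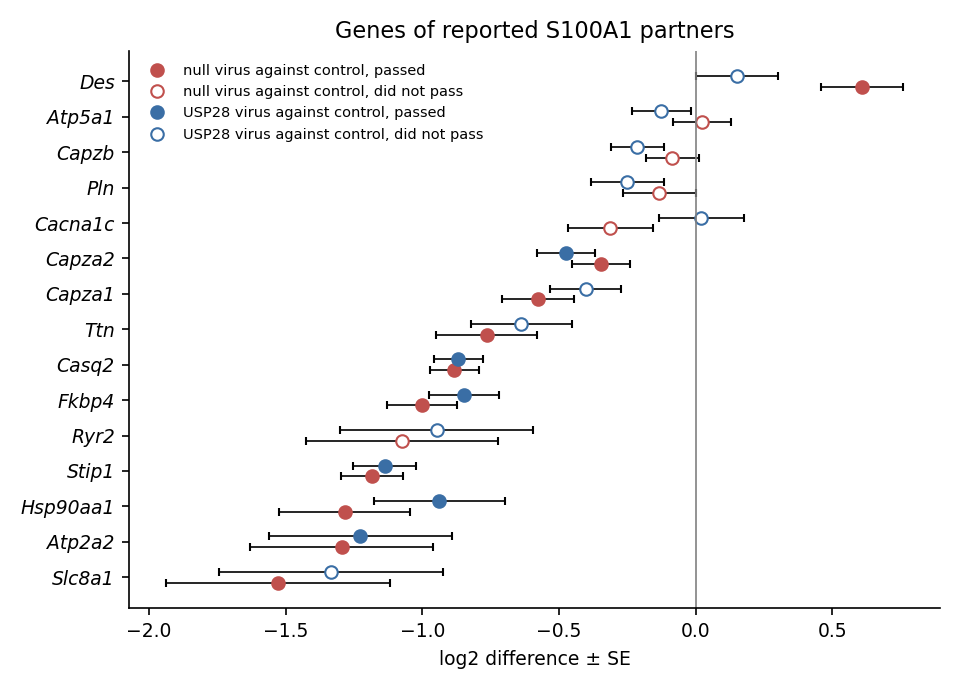
Log2 difference and SE against control of the 15 genes listed for S100A1, partners and others, for null virus and USP28 virus. The scale is log2(scaled RPKM + 0.1), and filled points mark genes past the threshold. With null virus 9 genes pass below 0 and Des passes above it, and with USP28 virus 6 pass below 0.

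Annexins and other partners of the remaining members gave 2 higher and 2 lower of 17 tested genes with null virus. This is near the 22.2% of all tested genes that passed (10.2% higher and 12% lower), so nothing is read from the count. With USP28 virus against control 11.9% of all genes passed. Anxa11 rose by 0.38 (limma adjusted p = 0.0131) and Ahnak, the large scaffold that binds the complex of S100A10 and annexin A2, by 0.43 (limma adjusted p = 0.0134). Cacybp, the calcyclin-binding protein named for S100a6, fell by 0.69 (limma adjusted p = 0.00433) and Anxa6 by 0.31 (limma adjusted p = 0.0435). These 4 genes also passed in the same directions with USP28 virus against control, by 0.34, 0.46, -0.72 and -0.39. Anxa2 and Anxa1, the partners of S100A10 and S100A11, differed by 0.02 (limma adjusted p = 0.937) and -0.05 (limma adjusted p = 0.685) with null virus and did not pass. Cacybp passed without any 1 library, in both comparisons. With null virus the Anxa6 call was lost without any 1 library other than null virus 1. Anxa11 was lost there without control 2, and Ahnak without control 2 or control 3. With USP28 virus, Anxa6 and Anxa11 were lost without any 1 control or USP28 virus library. Ahnak was lost there without control 2, control 3, USP28 virus 1 or USP28 virus 3. Over the 74 tested genes of the 4 partner, receptor and regulator lists, the neutrophil entry list and a list of other EF-hand sensors, 0 passed in USP28 virus against null virus by limma, 1 by limma voom, and 10 had an unadjusted p under 0.05.

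Genes whose pattern over the 9 libraries was most like a member were sought among genes with a mean of at least 2 scaled RPKM, by Pearson's r of log2 values, as a description. For S100a1 they were 2010107E04Rik (r = 0.998), Ndufb9 (0.993) and Slc25a4 (0.992), of 8074 genes compared. Ndufb9, a subunit of mitochondrial complex I, was at 1211 scaled RPKM in null virus 1 and at 494 to 653 in the other 8 libraries, and without that library r with S100a1 was 0.987, 0.947 and 0.940 for the 3 genes. For S100a8, they were Ppfibp2 (r = 0.982), Ap1g1 (0.957) and Top1 (0.953), beside values of S100a8 that rest on 0 to 14 reads. The same measure for S100a9 and S100a13 was added after their values were seen, and gave Cmss1 (0.989), Fndc5 (0.978) and Cog5 (0.975) for S100a9 and Art1 (0.988), Arl6ip4 (0.985) and Snrpa1 (0.984) for S100a13. All libraries share their tissue and groups, so r over 9 points is high for many genes.

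The 5 other S100 genes of the table, S100b, S100a14, S100a3, S100a5 and S100a7a, were too low to be tested. S100b, a glial and chondrocyte form, was the highest at 0.162 to 0.760 scaled RPKM on 10 to 36 reads. S100a7a had 3 to 14 reads per library, S100a14 0 to 10, S100a5 0 to 2, and S100a3 had 1 read in 1 library. Their groups overlapped in every comparison.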

How the data were processed

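The deposited table gives RPKM for 30128 genes in 9 columns. HISAT2 and DESeq2 are named, without version or role, per the submitters' processing notes. For the counting program and strand setting, the sources used here give nothing. The notes name the build GRCh38, but symbols and coordinates are mouse, and 25416 genes have the span of GENCODE M21 on GRCm38. Each value times gene length is a whole number of reads for 99.9839% of values above 0 (tolerance 0.01 reads), which gave reads and depths. None of the 9 S100 genes has a value that is not whole. A floor of 3 reads is 0.0531 to 0.0834 CPM.

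RPKM was scaled by an unweighted trimmed mean of M values (30% of ratios, 5% of levels). Log2(scaled RPKM + 0.1) was fitted in limma 3.58.1 (R 4.3.3; trended, robust prior) over 3 groups, with Benjamini-Hochberg adjustment over 14104 genes per comparison. Rose, fell and passed mean an adjusted p under 0.05. limma voom ran on the recovered reads. The fit was tested on simulated data.

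The members, gene lists and 14 marker lists were chosen with earlier results of these data known. The counts and medians of these lists are therefore a description. Named are the members, up to 4 genes per list and comparison with the smallest adjusted p, defining markers, up to 3 passing neutrophil and monocyte markers and the most alike genes; Atp2a2, Slc8a1, Ttn, Des, Fabp4, Gsn, Usp28, Ryr2, Pln, Tlr4, Spi1, Anxa1, Anxa2 and Lcn2 were added after their values were seen. Same-numbered libraries did not deviate together (correlations -0.0294 to 0.0603), so the numbers were not taken as pairs. No pair of libraries was identical. One gene of the EF-hand list is not reported here.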

Additional observations from a re-analysis of the deposited data

How the results depend on the processing

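Over all alternatives, 453 of 456 recomputed differences of the 8 tested members moved by less than the SD between libraries from the fit. Of those past the threshold 0 reversed. S100a9 went to -2.71 for USP28 virus against control with a pseudocount of 1, and S100a13 to 1.02 and -0.52 without null virus 1. Differences near 0 did change sign. S100a11 for null virus against control ran from -0.15 without null virus 1 to 0.12 without null virus 2. S100a10 for USP28 virus against control ran from -0.08 without USP28 virus 3 to 0.28 without control 3. Of 1137 recomputed differences of other named genes 195 missed the threshold and 0 reversed. Members past the threshold numbered 2 to 4 for null virus against control with 1 library left out (3 with all), 0 to 2 for USP28 virus against null virus (0 with all) and 1 to 2 for USP28 virus against control (1 with all), where library totals and the 2 groups alone also gave 2. The sum of S100a8 and S100a9 stayed within 1.51% to 2.11%, 0.211% to 0.328% and 0.120% to 0.203% of S100a1 in control, null virus and USP28 virus.

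All genes past the threshold for null virus against control were 3135, or 2053 with no filter, 1657 with the 2 groups alone and 1459 to 4436 with 1 library left out (1464 without control 2, 1459 without control 3). For USP28 virus against null virus they were 60, or 31 with library totals (87.1% higher, against 63.3%), 10 with no filter, 189 with limma voom, 0 with the 2 groups alone (1838 at an unadjusted p under 0.05) and 0 to 915 with 1 library left out, with 915 without null virus 1. For USP28 virus against control they were 1674, or 921 with library totals (66.4% higher, against 44.6%), 928 with no filter, 3797 with the 2 groups alone and 365 to 4084 with 1 library left out. With the replicate number as a block the counts were 2743, 0 (2344 at an unadjusted p under 0.05) and 1286. The numbers do not pair the samples, and the cause of these shifts was not tested. Count-based alternatives in edgeR and DESeq2 were not run, since the deposited unit is RPKM. Depth limits S100a8, which had at most 14 reads per library.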

Other observations

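Other EF-hand calcium sensors, outside the S100 family, were tested for 18 genes. Some passed between null virus and control, at a share near the 22.2% of all tested genes. Nothing is therefore read from this list as a whole. Hpcal1, a neuronal calcium sensor relative, rose by 0.83 (limma adjusted p = 0.0111; 0.49 with a pseudocount of 1) and Sdf4, a calcium-binding protein of the Golgi, by 0.40 (limma adjusted p = 0.0269). Calu, which encodes calumenin of the secretory pathway, fell by 0.77 (limma adjusted p = 0.0158). Sdf4 and Calu were each lost without control 2 or control 3. In USP28 virus against null virus and against control 0 of 18 passed by limma or limma voom, with 2 and 3 at an unadjusted p under 0.05. Calu was at 84.1, 86.0 and 84.1 scaled RPKM in control, 37.0, 54.4 and 61.1 with null virus and 56.3, 65.2 and 56.8 with USP28 virus.

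Of the S100 genes in the table, 13 lie within 3.05 megabases of chromosome 3, with 27 other genes among them, of which 4 were tested. Besides Gm42674, which shares reads with S100a4, Tchh (trichohyalin, a hair follicle protein with S100-like EF-hands) rose in USP28 virus against control by 0.71 (limma adjusted p = 0.0221; 0.36 with a pseudocount of 1), and the call was lost without any 1 control or USP28 virus library. Its level was 0.578 to 0.628 scaled RPKM in control and 0.948 to 1.24 with USP28 virus.

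Among the other marker lists, with null virus against control, the platelet list had 1 lower gene of 1 tested, the smooth muscle and pericyte list 1 higher of 8, and the proliferating cell list 1 lower of 3. With USP28 virus against control, the smooth muscle and pericyte list had 2 higher genes. The B cell and mesothelial lists had 1 tested gene each and the T and NK cell list 0, and 0 of these passed in any comparison by limma. By limma voom 1 mesothelial gene passed with null virus against control, and at an unadjusted p under 0.05 that list had 1 gene there and the B cell list 1 in USP28 virus against null virus. Of the 10 fibroblast markers, 3 were lower and 1 higher in USP28 virus against control, and 1 was higher in USP28 virus against null virus. Beside these counts, 22.2% of all tested genes passed with null virus against control. It was 11.9% with USP28 virus against control and 0.425% between the db/db groups.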
